A study of Mus musculus with 12 samples.

Results

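Type I interferon stimulated genes are the genes that a cell switches on when it senses interferon alpha or beta. A set of 31 of them was followed here in macrophages from the bone marrow of 2 mice, out of 23420 genes in the count table. They were taken from a fixed list of gene symbols; all 31 were found in the table, and all 31 were among the 11806 genes with enough counts to be tested. The series concerns mesenchymal stromal cells (MSCs, the supporting cells of the marrow) and macrophages in the leukaemic marrow. In each mouse, called mouse 7 and mouse 19 after the numbers in the sample names, macrophages were sorted from a tibia labelled MSC-treated and a femur labelled untreated, with 3 libraries per bone and mouse and 12 libraries in all. The mice had a C57BL/6 background. The sources used here do not state whether these animals carried leukaemia, their age or sex, or how the MSCs were delivered. Treated bones were tibias and untreated bones were femurs throughout, which means that the treatment and the bone cannot be told apart. The labels do not say whether the 3 libraries of a bone came from separate sorts or from 1 RNA sample, so the p-values measure the spread between libraries, which may be technical, and the number of animals is 2.

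Interferon alpha and beta bind a receptor made of IFNAR1 and IFNAR2. The kinases JAK1 and TYK2 on the receptor then activate STAT2, which joins IRF9 in a complex that binds a DNA element called the interferon-stimulated response element (ISRE) in front of the responding genes. Another element, called GAS, serves mainly the response to interferon gamma. Many of the induced proteins act against viruses: sensors that detect foreign nucleic acid, enzymes that degrade RNA or disturb viral replication, and transcription factors such as IRF7 that raise the response further. In macrophages and monocytes a low level of these genes is normally present without infection.

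The promoters of 24 members were matched in a RefSeq table of 300-base windows (250 bases before the start and 50 after it, GRCm38.p6). The ISRE core, here GAAA followed after any 2 bases by GAAA and read on both strands, occurred in 13 of the 24 members (54.2%), against 3.99% of all 27025 genes with a window. The GAS core TTCNNNGAA occurred in 5 of 24 (20.8%), against 9.55% of all genes. A match describes letters only and is not evidence that a factor bound there. The 150 bases before the start are shown for 7 members whose RNA is described below, to let the element be compared between genes, with ISRE or GAS matches in capitals and the strand of the gene 5′ to 3′. They are chr4:156200819-156200968 (Isg15, minus strand), chr19:34583379-34583528 (Ifit3, plus), chr5:120887614-120887763 (Oas1g, minus), chr5:120777660-120777809 (Oas3, minus), chr12:26456453-26456602 (Rsad2, minus), chr7:104465194-104465343 (Trim30a, minus) and chr11:53769864-53770013 (Irf1, plus).
Isg15: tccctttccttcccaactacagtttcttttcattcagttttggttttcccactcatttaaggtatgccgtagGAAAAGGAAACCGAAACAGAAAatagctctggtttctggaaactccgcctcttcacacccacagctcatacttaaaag
Ifit3: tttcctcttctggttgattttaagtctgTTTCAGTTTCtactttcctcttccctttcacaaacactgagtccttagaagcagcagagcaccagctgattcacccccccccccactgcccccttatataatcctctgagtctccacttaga
Oas1g: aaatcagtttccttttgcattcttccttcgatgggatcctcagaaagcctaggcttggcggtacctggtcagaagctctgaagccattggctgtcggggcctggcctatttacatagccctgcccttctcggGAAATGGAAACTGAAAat
Oas3: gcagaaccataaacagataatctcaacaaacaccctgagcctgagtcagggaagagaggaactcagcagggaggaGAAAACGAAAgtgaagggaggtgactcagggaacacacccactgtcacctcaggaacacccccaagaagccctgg
Rsad2: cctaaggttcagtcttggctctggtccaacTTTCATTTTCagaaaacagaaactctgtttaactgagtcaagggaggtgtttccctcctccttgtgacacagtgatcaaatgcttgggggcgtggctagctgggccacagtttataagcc
Trim30a: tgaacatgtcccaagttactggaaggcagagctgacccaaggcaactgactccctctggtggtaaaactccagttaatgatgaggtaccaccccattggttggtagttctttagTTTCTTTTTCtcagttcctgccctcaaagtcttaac
Irf1: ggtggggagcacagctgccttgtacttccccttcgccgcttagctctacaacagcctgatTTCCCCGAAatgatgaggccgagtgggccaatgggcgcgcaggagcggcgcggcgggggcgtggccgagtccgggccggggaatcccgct

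The Isg15 promoter held 3 overlapping ISRE cores in 1 run, and the Oas1g promoter held 2 overlapping cores next to the start. In Ifit3, Rsad2 and Trim30a the core lay on the opposite strand and therefore reads TTTC, any 2 bases and TTTC in the lines above. Irf1 held the GAS core and no ISRE core. Ifit3 and Trim30a, with 1 core each in the sequence shown, were called in both mice, whereas Isg15 was called in neither. The full window of Ifit3 held 2 cores, and Trim30a had 1 core in each of its 2 windows. Whether the number of cores goes with the calls was not tested.

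The libraries held 9773455 to 14869150 counts and 13524 to 13902 detected genes, and members took 0.117 to 0.236% of the counts of a library. Most fragments appear as 2 counts, since 69.8% of counts from 1 to 10 were even, so a count of 0 allows up to 3 fragments or 6 counts, which are 0.404 to 0.617 CPM (counts scaled to library size). All 15 macrophage markers were detected, with mean Csf1r levels of 785 to 1107 CPM over the 4 combinations of mouse and bone. Cd163, a marker of resident macrophages, had at most 3.72 CPM in a library. Spic, Mertk, Vcam1 and Aif1 of this list were also low, with at most 7.71, 12.1, 21.1 and 25.3 CPM. Detection does not give the share of macrophages in the sort, and neutrophil markers summed to 15502 to 28918 CPM over the libraries. Values for markers of monocytes, neutrophils and dendritic cells are given at the end. In bulk libraries of this kind, fewer cells of a type and less RNA per cell cannot be told apart.

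The first comparison asked whether the members differ between treated tibia and untreated femur over both mice. It found small and mostly lower values in the tibia, with 2 of 31 members called. These were Oas3, an enzyme that makes the 2-5A signal that activates RNase L, and Zbp1, a sensor of Z-form nucleic acid that can trigger necroptosis. Over all genes 7.2% were called in either direction and 3.69% were called lower. The median log2 change of the members, tibia over femur, was -0.08, against -0.002 over all genes, and 24 members were below 0 and 7 above.

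Oas3 (chr5:120753098-120777684) had 146, 147 and 149.6 CPM in the femur libraries of mouse 7 and 116, 108 and 116 CPM in its tibia libraries. In mouse 19 it had 61.3, 60.1 and 60.5 CPM in the femur and 65.4, 57.4 and 59.3 CPM in the tibia. The bones were thus separate in mouse 7 and overlapped in mouse 19. Over both mice Oas3 fell by 0.21 on the log2 scale (SE 0.06, edgeR adjusted p = 0.0267). Zbp1 (chr2:173206612-173218959) had 125, 121 and 125 CPM in the femur and 95, 101 and 98 CPM in the tibia of mouse 7. In mouse 19 the femur gave 66.7, 68.8 and 64.6 CPM and the tibia 70.3, 62.4 and 68.2 CPM, again with overlap. Over both mice Zbp1 fell by 0.17 (SE 0.05, edgeR adjusted p = 0.0481). The Oas3 call was lost without any 1 of the 6 libraries of mouse 7 (adjusted p of 0.0666 to 0.0876), and the Zbp1 call without any of these or library 2 of either bone of mouse 19 (0.0589 to 0.135). On counts summed per animal, where the animal is the unit and 1 residual degree of freedom remains, edgeR called 0 of 31 members (0.551% of all genes), and 1 member had an unadjusted p under 0.05.

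**Figure D1:**
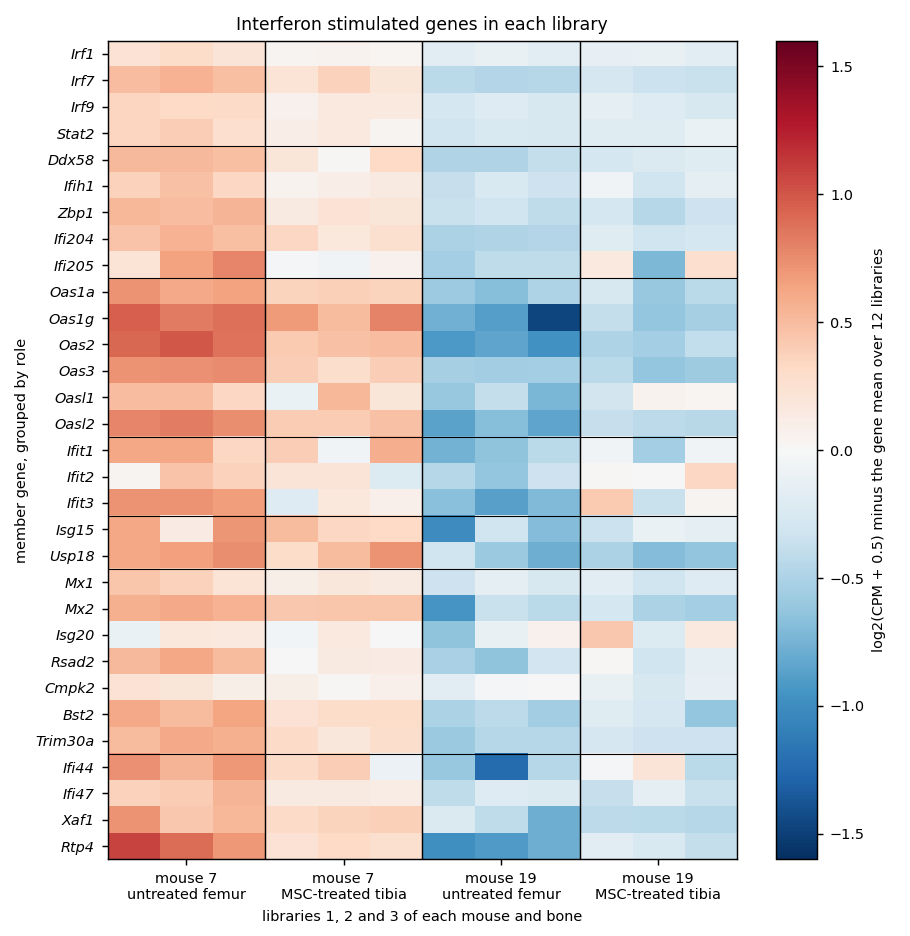
Each row is 1 of the 31 members, grouped by role, and each column 1 of the 12 libraries; colour gives log2(CPM + 0.5) minus the gene's mean over the libraries. Mouse 7 femur libraries are the reddest and mouse 19 femur libraries the bluest, with both tibias between them for most members.

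Within each mouse the picture differed. In mouse 7 all 31 members had a lower fitted level in the treated tibia, and 20 of them were called lower (5.36% of all genes were), with a median log2 change of -0.25 against -0.01 over all genes. The changes ran from -0.71 (Ifit3) to -0.04 (Isg20). In 24 of 31 members each of the 3 tibia libraries lay below each of the 3 femur libraries, an order that 14.4% of all genes showed. In mouse 19, 28 of 31 members had a higher fitted level in the treated tibia. Here 7 were called higher (2.96% of all genes were) and 0 lower (2.21%), and the median was 0.19 against 0.001 over all genes. The changes ran from -0.10 (Cmpk2) to 1.18 (Ifi44), and 13 members had all 3 tibia libraries above all 3 femur libraries (10.8% of all genes). The count of 7 became 4 without tibia library 1 of mouse 19.

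The difference itself, the tibia effect in mouse 19 minus that in mouse 7, was above 0 in 31 of 31 members and was called in 19, with a median of 0.46 against 0.01 over all genes. Among all genes 2.89% were called in this direction and 1.85% in the other. A total of 6 members, Ifit3, Oas2, Oasl2, Ifi204, Rtp4 and Trim30a, were called lower in mouse 7 and higher in mouse 19, which 0.356% of all genes were, and 0 members were called the same way in both mice, against 0.627% (lower) and 0.72% (higher) of all genes. In 11 members every tibia library of mouse 7 lay below, and every tibia library of mouse 19 above, all femur libraries of its own mouse (1.47% of all genes). The within-mouse comparisons of the 2 animals set different libraries against each other, and each rests on 1 animal. Both came from 1 fit on all 12 libraries with a shared estimate of the spread, so their calls are not independent.

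**Figure D2:**
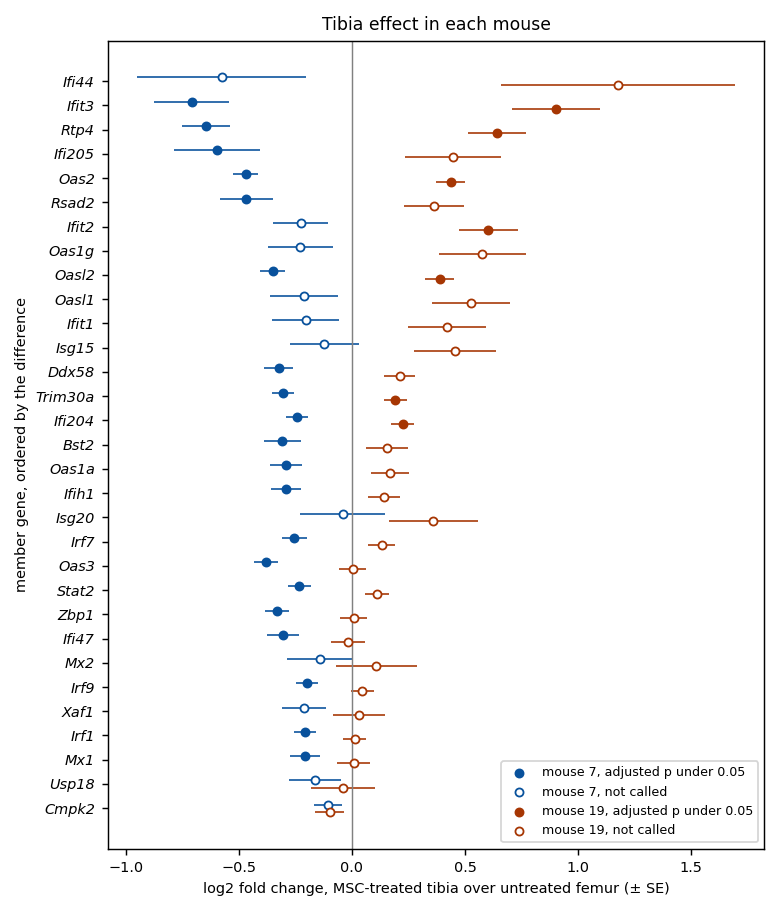
Points give the log2 fold change of treated tibia over untreated femur (x axis) with its SE for each member (y axis), in mouse 7 (blue) and mouse 19 (brown); filled points passed an adjusted p under 0.05. All mouse 7 points lie below 0, from -0.71 to -0.04, and 28 of 31 mouse 19 points lie above 0.

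The signal and transcription factors were abundant, and their changes were small. Stat2 and Irf9 are parts of the ISRE-binding complex, Irf7 amplifies interferon production, and Irf1 is a factor induced by both interferon classes. All 4 fell in mouse 7, by 0.20 (Irf9) to 0.25 (Irf7) on the log2 scale, and 0 of 4 were called in mouse 19, where their changes were 0.01 to 0.13. The difference between the mice was called in 3: Irf7 at 0.39 ± 0.08 (SE), Stat2 at 0.34 ± 0.07 and Irf9 at 0.24 ± 0.07. For Irf1 it was 0.22 ± 0.07 and did not pass (edgeR adjusted p = 0.0704). The Irf9 difference was lost in 8 of the 12 fits that leave out 1 library (0.0551 to 0.131): without femur 1 or 2 or tibia 1 or 3 of mouse 7, or femur 1 or 3 or tibia 1 or 2 of mouse 19.

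Sensors of nucleic acid formed a group of 5. Ddx58 encodes RIG-I and Ifih1 encodes MDA5, which detect viral RNA in the cytosol, Zbp1 is described above, and Ifi204 and Ifi205 belong to the p200 family of DNA-binding proteins. All 5 were called lower in mouse 7 and all 5 had a called difference between the mice. Ifi204 (chr1:173747293-173767069) had 212, 228 and 216 CPM in the femur and 195, 174 and 184 CPM in the tibia of mouse 7. In mouse 19 its femur libraries had 109, 111 and 112 CPM and its tibia libraries 136, 124 and 127 CPM. No bone overlapped the other in either mouse, and the order of the bones was opposite. The changes were -0.24 ± 0.05 in mouse 7 and 0.22 ± 0.05 in mouse 19 (edgeR adjusted p = 0.00137 and 0.00745), and the latter was lost without tibia library 1 of mouse 19 (0.082). Ifi204 was, at 46.2 CPM per kb of exon in the femur, the second most abundant member per length.

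Ifi205 (chr1:174011998-174031755), a close relative of Ifi204, had 8.77, 11.9 and 13.1 CPM in the femur and 7.36, 7.14 and 7.81 CPM in the tibia of mouse 7. Mouse 19 had 4.94, 5.5 and 5.5 CPM in the femur and 8.36, 4.34 and 9.05 CPM in the tibia, so that tibia library 2 fell below the femur and the other libraries above it. The difference between the mice was 1.05 ± 0.29 (edgeR adjusted p = 0.0275). It was lost in 8 of 12 fits without 1 library: without femur 2 or 3 or tibia 1 or 2 of mouse 7, or femur 1 or 2 or tibia 1 or 3 of mouse 19 (0.0512 to 0.101). Its mouse 7 call was lost without femur 2 or 3 or any tibia library of mouse 7 or femur 1 of mouse 19 (0.05004 to 0.179). Reads of the p200 family can be split between near-identical copies, so the separate values of Ifi204 and Ifi205 are uncertain. Ddx58 fell by 0.32 in mouse 7 with a difference of 0.54 ± 0.09, and Ifih1 fell by 0.29 with a difference of 0.43 ± 0.10.

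The OAS family makes 2-5A, the short oligoadenylate that switches on RNase L, an activity that the relative Oasl1 lacks. The genes lie on chromosome 5, with Oasl1 and Oasl2 side by side and apart from Oas1a, Oas1g, Oas2 and Oas3. A total of 4 of 6 were called lower in mouse 7, 2 of 6 higher in mouse 19, and 5 of 6 differed between the mice. Oas2 (chr5:120730333-120749886) had 145, 154 and 140.5 CPM in the femur and 103, 106 and 108 CPM in the tibia of mouse 7. In mouse 19 the femur libraries had 40.3, 42.6 and 39.0 CPM and the tibia libraries 54.5, 52.5 and 58.1 CPM. The bones of each mouse were apart, and the 2 tibias lay between the 2 femurs. Oas2 was 1.39-fold lower in the tibia of mouse 7 and 1.35-fold higher in that of mouse 19 (log2 -0.47 ± 0.05 and 0.44 ± 0.06, edgeR adjusted p = 8.86e-07 and 2.29e-05). The difference was 0.91 ± 0.08 (1.59e-08), and these calls were kept without any 1 of the 12 libraries.

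Oasl2 (chr5:114896926-114912245) repeated this order. It had 120.0, 123 and 117 CPM in the femur and 92.5, 92.7 and 96.6 CPM in the tibia of mouse 7. The libraries of mouse 19 had 38.1, 43.1 and 38.4 CPM in the femur and 53.8, 51.9 and 50.9 CPM in the tibia. The changes were -0.35 ± 0.05 and 0.39 ± 0.06 (edgeR adjusted p = 6.66e-05 and 1.40e-04). Oasl1 (chr5:114923143-114937911), which is known to inhibit translation of Irf7, was lower in abundance, with 14.2, 14.2 and 12.7 CPM in the femur and 9.26, 14.7 and 11.5 CPM in the tibia of mouse 7. In mouse 19 it had 6.38, 7.57 and 5.82 CPM in the femur and 8.02, 10.4 and 10.3 CPM in the tibia. Its bones overlapped in mouse 7 and not in mouse 19, and its difference of 0.74 ± 0.23 missed the threshold (edgeR adjusted p = 0.0634).

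Oas1g (chr5:120876142-120887613), whose promoter is shown above, had 16.1, 14.7 and 15.2 CPM in the femur and 13.2, 11.7 and 14.4 CPM in the tibia of mouse 7. In mouse 19 the femur had 4.53, 4.15 and 2.59 CPM and the tibia 6.07, 5.06 and 5.41 CPM. No bones overlapped in either mouse, yet neither within-mouse change was called. The difference of 0.80 ± 0.24 passed narrowly (edgeR adjusted p = 0.0479) and was lost without any single library other than tibia 3 of mouse 7 and femur 1 of mouse 19 (0.0512 to 0.212). Oas1a, its neighbour and near-identical copy, fell by 0.29 in mouse 7 with a difference of 0.46 ± 0.11 (edgeR adjusted p = 0.00967). That difference was lost without tibia 1 of mouse 19 (0.0649), and the mouse 7 call without femur 1 of mouse 7 (0.0523). Reads of the Oas1 copies can be split between them, so both values are uncertain. Oas3 had a difference of 0.38 ± 0.08.

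**Figure D3:**
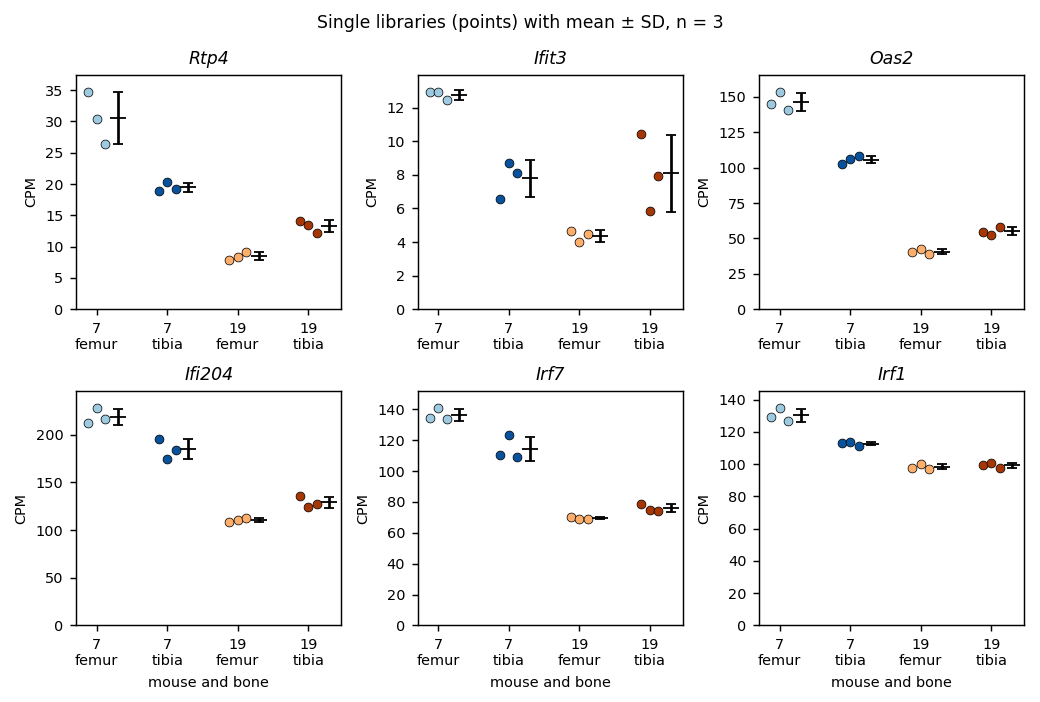
Points are single libraries in CPM (y axis from 0) by mouse and bone, with mean ± SD over 3 libraries beside them, for 6 members. In Rtp4, Ifit3, Oas2 and Ifi204 the tibia is below the femur in mouse 7 and above it in mouse 19; in Irf1 the bones of mouse 19 overlap, at 97.5 to 101 CPM in the tibia and 97.3 to 100.3 CPM in the femur.

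The IFIT proteins bind viral RNA that lacks the host's cap marks and block its translation; their genes lie side by side on chromosome 19. Ifit3 (chr19:34583119-34588982) had the largest called difference among the members, 1.61 ± 0.26 (edgeR adjusted p = 1.18e-04). It had 12.9, 12.9 and 12.4 CPM in the femur and 6.57, 8.67 and 8.10 CPM in the tibia of mouse 7. In mouse 19 the femur had 4.63, 3.99 and 4.48 CPM and the tibia 10.4, 5.86 and 7.92 CPM. It was 1.64-fold lower in the tibia of mouse 7 and 1.87-fold higher in that of mouse 19, so that the 2 tibias overlapped although the femurs did not. The mouse 19 call was lost without its tibia library 1 (0.0739). Ifit2 (chr19:34550550-34576534) had 22.5, 30.2 and 28.3 CPM in the femur and 25.3, 25.2 and 18.8 CPM in the tibia of mouse 7, with overlap and no call (edgeR adjusted p = 0.264). Mouse 19 had 15.8, 14.0 and 17.2 CPM in the femur and 22.2, 21.8 and 27.6 CPM in the tibia, a rise of 0.60 ± 0.13 (0.00375). Its difference was 0.83 ± 0.18. Ifit1 had changes of -0.21 and 0.42 that did not pass, and a difference of 0.63 ± 0.23 that did not pass either (0.131). Reads of Ifit3 can be shared with a near-identical neighbour, which makes its separate value uncertain.

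Isg15, a ubiquitin-like protein that is attached to other proteins, and Usp18, the protease that removes it and also restrains the interferon receptor, formed a pair without calls within either mouse. Isg15 had changes of -0.12 ± 0.15 in mouse 7 and 0.46 ± 0.18 in mouse 19, and Usp18 of -0.16 ± 0.11 and -0.04 ± 0.14. Neither difference passed (edgeR adjusted p = 0.205 and 0.831). Isg15 was at 4.84 to 16.9 CPM over the 12 libraries, where the standard errors were larger than for the abundant members.

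Other antiviral effectors numbered 7. Rsad2 (chr12:26442743-26456452) encodes viperin, which makes a chain-terminating nucleotide. It had 19.5, 20.8 and 19.2 CPM in the femur and 13.5, 14.8 and 14.7 CPM in the tibia of mouse 7. The libraries of mouse 19 had 9.16, 8.37 and 10.7 CPM in the femur and 13.6, 10.6 and 12 CPM in the tibia. The bones were apart in mouse 7, with a fall of 0.47 (SE 0.12, edgeR adjusted p = 0.0095), and overlapped in mouse 19, where 0.36 ± 0.13 did not pass (0.118). Without femur library 2 of mouse 7 the fall was lost (0.0524). The difference was 0.83 ± 0.18 (0.00363). Cmpk2, its neighbour on chromosome 12 and the kinase that supplies nucleotides for mitochondrial DNA, had the smallest difference of all members, 0.01 ± 0.09, with -0.11 in mouse 7 and -0.10 in mouse 19, neither called.

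Trim30a (chr7:104409025-104465193), which restrains Toll-like receptor signalling, was the most abundant member per length, at 47.9 CPM per kb of exon in the femur. It had 257, 275 and 268 CPM in the femur and 224, 204 and 219 CPM in the tibia of mouse 7. In mouse 19 the femur had 119, 132 and 132 CPM and the tibia 150.4, 144 and 143 CPM. Both mice kept their bones apart, in opposite order. The changes were -0.31 ± 0.05 and 0.19 ± 0.05 (edgeR adjusted p = 5.89e-05 and 0.0195), and the latter was lost without library 1 of the femur (0.173) or of the tibia (0.115) of mouse 19. Trim30a has close copies beside it, so part of its reads may belong to them.

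Bst2 (chr8:71534255-71537472), or tetherin, holds budding virus particles on the cell surface and was the third most abundant per length, at 39.9 CPM per kb. It had 49.9, 46.5 and 50.7 CPM in the femur and 38.4, 40.2 and 40.1 CPM in the tibia of mouse 7. In mouse 19 it had 22.8, 24.2 and 21.9 CPM in the femur and 28.4, 27.0 and 21.1 CPM in the tibia, with tibia library 3 below all femur libraries. Bst2 fell by 0.31 in mouse 7 (SE 0.08, edgeR adjusted p = 0.0142), a call lost without femur 1, femur 3 or tibia 1 of mouse 7 (0.0554 to 0.0583). Its difference of 0.46 ± 0.13 (0.0252) was lost without any of these or without femur 1, femur 3, tibia 1 or tibia 2 of mouse 19 (0.0579 to 0.123).

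The dynamin-like GTPase Mx1 fell by 0.21 in mouse 7 (SE 0.07, edgeR adjusted p = 0.0449). That call was lost without femur 1 or 2 or any tibia library of mouse 7, or femur 1 or 3 or tibia 3 of mouse 19 (0.0521 to 0.235), and Mx1 had a change of 0.01 in mouse 19. Mx2 had -0.14 and 0.11 and Isg20, an RNA exonuclease, -0.04 and 0.36, none of them called.

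In the last group, Rtp4, a chaperone of receptors that also binds viral RNA, had the opposite order in the 2 mice as well. Rtp4 (chr16:23520219-23614222) had 34.7, 30.4 and 26.3 CPM in the femur and 18.9, 20.3 and 19.3 CPM in the tibia of mouse 7. Mouse 19 had 7.92, 8.37 and 9.20 CPM in the femur and 14.2, 13.5 and 12.2 CPM in the tibia. It was 1.56-fold lower in the tibia of mouse 7 and 1.56-fold higher in that of mouse 19 (edgeR adjusted p = 1.14e-04 and 0.00194). The difference was 1.29 ± 0.17 (7.93e-06), and no call was lost without any 1 library. Ifi44 (chr3:151730922-151749910) was the rarest member, with 0.194 CPM per kb in the femur. It had 2.08, 1.75 and 2.00 CPM in the femur and 1.42, 1.53 and 0.949 CPM in the tibia of mouse 7, and 0.514, 0.159 and 0.629 CPM in the femur and 1.01, 1.29 and 0.646 CPM in the tibia of mouse 19. Of its 3 femur libraries of mouse 19, 2 were below the limit that a count of 0 allows. The order of its bones was opposite in the mice without overlap, and its difference of 1.75 ± 0.64, the largest fitted value, did not pass (0.133). Ifi47, a GTPase more responsive to interferon gamma, fell by 0.31 in mouse 7, with -0.02 in mouse 19 and a difference that did not pass (0.128). Xaf1, which promotes cell death, had -0.21 and 0.03 with no call.

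The mice already differed in their untreated femurs. All 31 members had a lower fitted level in the femur of mouse 19 than in that of mouse 7, and 30 were called lower (14.3% of all genes were), with a median of -1.06 against 0.002 over all genes. This compares 1 animal with 1 animal. The exception was Isg20 at -0.28 ± 0.20 (edgeR adjusted p = 0.317). The gap ran from -0.24 in Cmpk2 to -2.15 in Ifi44. Oas2 was 3.60-fold and Rtp4 3.57-fold lower in the femur of mouse 19, whereas Irf1 was 1.32-fold lower. In 30 members all 3 femur libraries of mouse 19 lay below all 3 of mouse 7 (20.7% of all genes).

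In the treated tibias the same gap was smaller. A total of 24 members were called lower in the tibia of mouse 19 than in that of mouse 7 (6.77% of all genes), with a median of -0.52 against -0.001 over all genes. The 7 without a call were Ifit2, Ifit3, Isg20, Oasl1, Rsad2, Ifi44 and Ifi205. In 23 members the libraries of the 2 tibias did not overlap (14.1% of all genes had mouse 19 below). The gap between the mice was closer to 0 in the tibia than in the femur in 31 of 31 members, in 60.9% of all genes and in 90.9% of the 1688 genes that were called lower in the femur of mouse 19. Of those 1688 genes 18.5% also had a called difference in the same direction as the members. These counts use the same femur libraries as the within-mouse comparisons and are the same data seen from the other side.

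**Figure D4:**
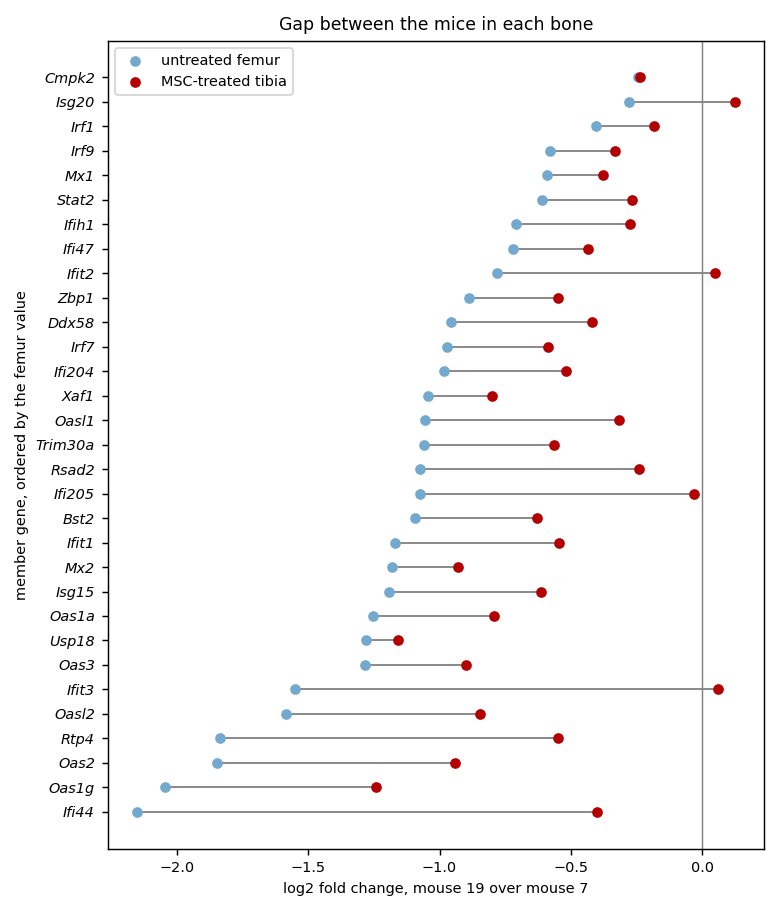
For each member (y axis) a line joins the log2 fold change of mouse 19 over mouse 7 (x axis) in untreated femur (blue) with that in treated tibia (red), each comparing 1 animal with 1 animal. The femur values run from -2.15 to -0.24, and each tibia value lies to the right of its femur value.

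The members' summed level shows the same order. It was 2294 to 2367 CPM in the femur and 1895 to 1922 CPM in the tibia of mouse 7, and 1181 to 1239 CPM in the femur and 1302 to 1385 CPM in the tibia of mouse 19. No 2 of the 4 combinations overlapped. Across the 12 libraries the correlation of a member's log2 CPM with the mean of the other members ran from 0.36 (Isg20) to 0.995 (Oas2), a description over libraries of 2 animals.

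Upstream of the members, a list of 19 interferon genes had almost no counts. Ifnb1, the gene of interferon beta, had 2 counts in 1 library (femur 1 of mouse 7) and 0 in the other 11, and Ifng, the gene of interferon gamma, had 14 counts over all 12 libraries. No gene of this list could be tested, and interferon made by other cells of the marrow would not be seen in sorted macrophages. Ifnar1 was at 171 to 183 CPM and Ifnar2 at 177 to 194 CPM on average in the 4 combinations, and neither was called in any comparison of bones or mice. Jak1 fell by 0.13 in mouse 7 (SE 0.04, edgeR adjusted p = 0.0284), with -0.00 ± 0.04 in mouse 19 (0.987).

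Ifngr1, a chain of the interferon gamma receptor, rose by 0.19 ± 0.04 in mouse 19 (edgeR adjusted p = 0.0017) and had a difference of 0.28 ± 0.05 (0.00157). Among 10 feedback regulators 2 fell in mouse 7 (5.36% of all genes), 1 rose in mouse 19 (2.96%) and 2 had a called difference above 0 (2.89%). Socs3, an inhibitor of cytokine receptors, rose by 0.87 ± 0.10 in mouse 19 (edgeR adjusted p = 7.42e-07), with 0.15 ± 0.10 in mouse 7 (0.38). Socs1, the main inhibitor of interferon signalling, was at 2.93 to 3.87 CPM and was not called. Irf2 and Ptpn1 fell by 0.20 and 0.14 in mouse 7.

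A list of 22 further sensors and adaptors of nucleic acid sensing had 6 called lower in mouse 7 (5.36% of all genes). In mouse 19, 5 were called higher (2.96%) and 1 lower (2.21%). Their difference was called above 0 in 8 (2.89%) and below 0 in 1 (1.85%). The endosomal receptor Tlr3 had the largest difference, 1.70 ± 0.41 (edgeR adjusted p = 0.0108), at mean levels of 1.70 to 4.99 CPM. Tlr9, a receptor for DNA, fell by 0.24 in mouse 7 and rose by 0.23 in mouse 19. Tlr7, a receptor for RNA, and Dhx58, a regulator of RIG-I, had differences of 0.41 ± 0.07 and 0.38 ± 0.09. Irf8, a factor needed for monocyte development, went the other way, with a fall of 0.25 in mouse 19 and a difference of -0.31 ± 0.06.

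Of 67 other interferon-induced genes 61 were tested. In mouse 7, 30 were called lower (5.36% of all genes). In mouse 19, 4 were called higher (2.96%) and 1 lower (2.21%). The difference was called above 0 in 21 (2.89%) and below 0 in 0 (1.85%). The median difference was 0.23, against 0.46 for the 31 members and 0.01 for all genes. In the femur 51 of the 61 were called lower in mouse 19 (14.3% of all genes). Cxcl10, a chemokine for T cells, had a difference of 1.64 ± 0.33, Phf11d of 0.93 ± 0.22, and Siglec1, a sialic acid receptor of macrophages, of 0.76 ± 0.15. Parp12 (0.63 ± 0.10), Trim30d (0.63 ± 0.13) and Trim34a (0.59 ± 0.15) followed. Over both mice 6 of the 61 fell (3.69% of all genes) and 0 were called higher.

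Some markers of other cells had the members' order and others the opposite. Non-classical monocytes patrol vessels and carry little Ly6C. Of their 9 markers 6 fell in mouse 7, 2 rose and 1 fell in mouse 19, and the difference was called above 0 in 7 and below 0 in 1 (Spn). Over all genes 4.37% were called higher and 5.36% lower in mouse 7, and 2.96% and 2.21% in mouse 19. The difference was called above 0 in 2.89% of all genes and below 0 in 1.85%. These shares also apply to the macrophage and conventional dendritic cell counts below. Ace fell by 0.54 in mouse 7 and rose by 0.42 in mouse 19, and Treml4 fell by 0.45 and rose by 0.51. The summed level of the 9 was 1900 to 1995 CPM in the femur and 1666 to 1694 CPM in the tibia of mouse 7, and 1526 to 1574 CPM in the femur and 1550 to 1648 CPM in the tibia of mouse 19. None of the 9 was at 0 in any combination. Of the 15 macrophage markers, 3 were called higher and 5 lower in mouse 7, 6 higher and 0 lower in mouse 19, and 5 had a called difference above 0. Csf1r was called in opposite directions (-0.14 and 0.21), whereas markers such as Mertk and Aif1 were called higher in both mice. Of the 9 conventional dendritic cell markers, 0 were called higher and 4 lower in mouse 7, 1 higher and 1 lower in mouse 19, and 2 had a called difference above 0. The antigen presentation gene H2-Aa was called in opposite directions (-0.47 and 0.39) and Itgax was lower in both mice.

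Neutrophils and their precursors went against the members between the mice. All 10 detected markers were called higher in mouse 19 than in mouse 7 in the femur (14.1% of all genes) and again in the tibia (7.22%). Their sum was 15502 to 17144 CPM in the femur and 16556 to 17562 CPM in the tibia of mouse 7, and 23486 to 27286 CPM and 26746 to 28918 CPM in mouse 19. Within mouse 7, 5 of the 10 markers were called higher in the treated tibia (4.37% of all genes) and 0 lower. Within mouse 19, 6 were called higher (2.96%) and 0 lower. Classical monocyte markers summed to 17011 to 17721 CPM in the femur and 15724 to 16201 CPM in the tibia of mouse 7. In mouse 19 they summed to 16748 to 16999 CPM in the femur and 15703 to 15977 CPM in the tibia. Of the 8 classical monocyte markers tested, 0 were called higher (4.37% of all genes) and 4 lower (5.36%) in mouse 7. In mouse 19, 2 were called higher (2.96%) and 4 lower (2.21%). The difference was called above 0 in 3 of them (2.89% of all genes) and below 0 in 1 (1.85%). The summed levels of the macrophage, conventional dendritic cell and plasmacytoid dendritic cell lists were also highest in the femur of mouse 7. The plasmacytoid dendritic cell list, the cell type known for making interferon alpha, summed to 80.6 to 115 CPM. Most of this sum came from Tcf4 (39.2 to 63.6 CPM) and Runx2 (27.9 to 36.8 CPM), so it is not a level of these cells. Siglech, the defining marker of the list, had at most 3.85 CPM. The part of these cell types in the members' differences was not tested.

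**Figure D5:**
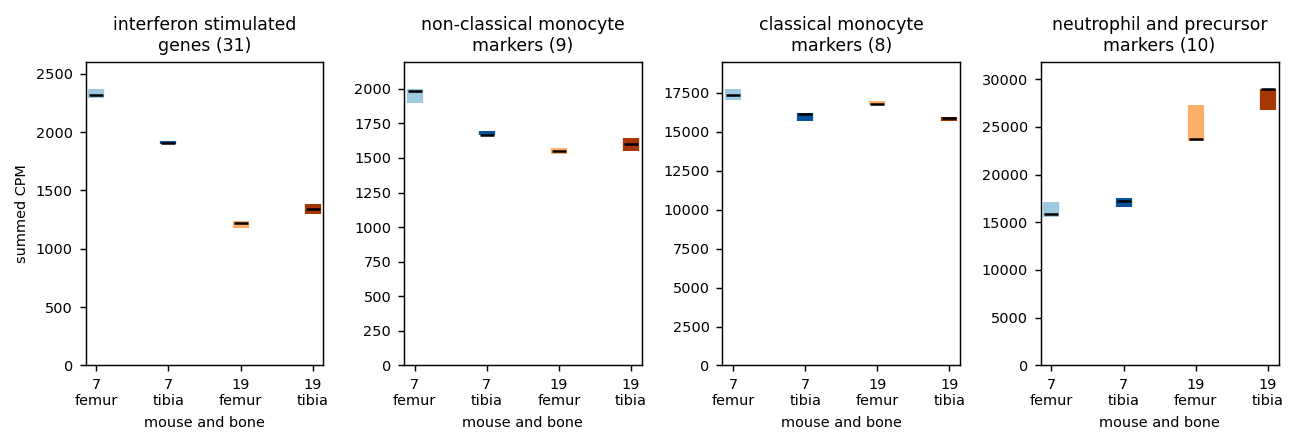
Bars span the lowest to the highest summed CPM (y axis from 0, a different scale in each panel) of 3 libraries and the black line marks their median, by mouse and bone, for the members and 3 marker lists. The members and both monocyte lists are highest in the femur of mouse 7, and the neutrophil markers are higher in both bones of mouse 19.

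Outside all these lists, the genes whose log2 CPM over the 12 libraries was most like the mean of the members included Cd36 (Pearson r = 0.993), Il10ra (0.990), Il2rg (0.989) and Trf (0.987). Cd36, a fatty acid and lipoprotein receptor, had -0.56 in mouse 7 and 0.70 in mouse 19, both called. These 12 points come from 2 animals and share libraries and depth, and the value is given as a description.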

How the data were processed

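RNA-seq counts of 12 macrophage libraries were analysed. Per the labels' protocols, a micro column kit with DNase digestion gave the RNA and a VAHTS mRNA kit the libraries. The deposited table holds raw read counts per gene in whole numbers, and the values show no scaling by the authors. The submitters' processing notes give no order of steps. Per these notes mm10 was the build, and bcl2fastq, DESeq2, featureCounts, HISAT2 and Subread were named; their versions, settings and strand handling were not given in the sources used here. Reads of overlapping and antisense genes therefore cannot be told apart.

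Counts were fitted in R 4.3.3 with edgeR 4.0.16 (quasi-likelihood test, TMM scaling, filterByExpr with a minimum count of 10, which left 11806 genes). The comparison over both mice had the mouse as a term. The other contrasts came from 1 mean per mouse and bone, fitted on all 12 libraries, and the difference was a contrast of contrasts. A further fit used counts summed per mouse and bone. Tests were two-sided. A gene was called where its p, adjusted by Benjamini-Hochberg over all genes tested, was under 0.05. The standard error is the absolute log2 change divided by the square root of F. CPM used TMM-scaled library sizes. Libraries of 1 bone and mouse had a chi-square per gene of 2.73 to 6.28 and were kept apart. Counting most fragments as 2 raises this value by itself, so how far it exceeds sampling noise is uncertain. The value that edgeR names the biological coefficient of variation was 5.51%. It measures the spread between libraries of 1 bone of 1 mouse, which may be technical, and holds no variation between animals. Without molecular identifiers PCR reads are not independent molecules, and floors cover counting error only. The scripts were tested on simulated data. All 31 symbols were matched to the reference tables for coordinates (RefSeq, GRCm38.p6), and exon lengths came from the GENCODE annotation of that assembly.

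The members and gene lists were chosen with earlier results of these data known. Library values are printed for members called over both mice, the 10 members with the largest difference between the mice, members called on sums (none were) and the 3 most abundant per length. Genes of other lists are named if called, at most 6 a list by size, with Ifnar1, Ifnar2, Ifnb1, Ifng and Socs1 always given. The 5 genes outside all lists with the highest correlation with the members' mean were also chosen by rule. Of the genes chosen by these rules, 2 are not reported here. Genes outside this rule (Csf1r, Mertk, Aif1, Spic, Vcam1, H2-Aa, Itgax, Siglech, Tcf4, Runx2, Cd163, Spn, and Irf7 and Irf1 in the plot) were chosen after their values were seen. Same-numbered libraries of the 2 bones did not deviate together (correlations of -0.0474 to 0.000594), so the numbers do not pair them. Alternatives were DESeq2 1.42.0, limma-voom (limma 3.58.1), other filters and scaling, halved counts, a replicate block and leaving out each library.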

Additional observations from a re-analysis of the deposited data

Results flagged for a closer look

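The tibia effect differed between the mice, by the edgeR interaction contrast, in 19 of 31 members. All of these differences, mouse 19 minus mouse 7 on the log2 scale, were above 0. The largest were 1.61 for Ifit3, 1.29 for Rtp4 and 1.05 for Ifi205. The OAS family gave 0.91 for Oas2, 0.80 for Oas1g, 0.74 for Oasl2, 0.46 for Oas1a and 0.38 for Oas3. Rsad2 and Ifit2 both had 0.83. Among sensors and effectors the values were 0.54 for Ddx58, 0.50 for Trim30a, 0.47 for Ifi204, 0.46 for Bst2, 0.43 for Ifih1 and 0.34 for Zbp1. The factors had 0.39 for Irf7, 0.34 for Stat2 and 0.24 for Irf9. Each side of the difference is 1 animal.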

How the results depend on the processing

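No called change turned its direction under any alternative. Over both mice the 2 calls became 0 with the replicate block (adjusted p = 0.072 for Oas3 and 0.116 for Zbp1 in edgeR), 0 without the mouse term and 1 with scaling by library totals only, which was chosen after seeing the data, as was the comparison of the 2 tibias. The replicate numbers do not pair the libraries. The ISRE core lengthened by CT at its end was found in 7 members instead of 13 (29.2% of the 24 matched, against 0.303% of all genes). Shortened by its last base, the core was found in 14 members (58.3%, against 9.76% of all genes). Leaving out 1 library gave 0 to 3 calls over both mice, 17 to 20 in mouse 7, 4 to 8 in mouse 19, 15 to 18 for the difference, 30 in the femur, 22 to 24 in the tibia and 0 on sums. Over both mice the count was 0 without any 1 library of mouse 7 and 1 without femur library 2 of mouse 19; the cause was not tested. DESeq2 gave 2 calls over both mice, 19 in mouse 7, 7 in mouse 19 and 19 for the difference. On sums it was not run. It lost the Mx1 call in mouse 7 (adjusted p = 0.0531; the values in brackets that follow are adjusted p as well). The Oas1g difference was lost with limma-voom (0.0615), halved counts (0.057) and library totals (0.0572), and the Ifi205 difference with limma-voom (0.0729). Library totals also lost the Irf9 difference (0.0677) and the mouse 7 calls of Mx1 (0.0791) and Ifi205 (0.0528). Without the count filter, calls were gained for Oasl1 (difference 0.0193, mouse 19 0.0284), the Ifit1 difference (0.0377), Ddx58 in mouse 19 (0.0485) and Ifi47 over both mice (0.0375). Depth was not tested as a cause of the wider standard errors of the less abundant members.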
